A study of Mus musculus with 2 samples.

Results

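Interferon-stimulated genes are the genes that cells switch on when interferon binds its receptor, and 35 of them, left after the MHC, immunoproteasome, IRG and GBP genes were set aside, were followed here in mouse dorsolateral prostate. The genes were chosen by name, with earlier results of these data known, so shares set beside those of all genes are descriptions only. Each gene was read from its brightest non-control probe whose RefSeq accession mapped to it. Of 18952 genes named in this way on the array, 33 belonged to the set, with 48 probes. Mx1 and Mx2 had no such probe and were not analysed here. Both are dynamin-like GTPases, so the set as chosen leaves out only the IRG and GBP families of GTPases.

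The tissue came from FVB/N mice at 6 months of age. RNA of 6 wild-type animals formed 1 pool, and RNA of 6 ARR2PB-miR32 transgenic animals formed the other. ARR2PB is a composite probasin promoter that responds to androgen and is active in prostate epithelium, so the other cells of the gland are not meant to carry the transgene product. The labels name no founder line. Both pools were hybridised together on 2 arrays with exchanged dyes. On array 1 the transgenic RNA was labelled with Cy3, and on array 2 with Cy5. The arrays repeat the same RNA and count as 1 replicate, so that no p-value for genotype exists and each ± is the SD over the 2 arrays. The comparison asks how miR-32 in prostate epithelium alters gene expression. All 12 prostate epithelial markers examined, such as Pbsn and Krt8, were detected.

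Type I interferons signal through a complex that holds STAT2 and IRF9 and binds the interferon-stimulated response element (ISRE), whereas interferon gamma acts mainly at the gamma-activated site (GAS). The induced proteins sense viral RNA, degrade it or block its translation, stop virions at membranes, or call in lymphocytes. Many of these genes keep a basal level in epithelium and in resident macrophages without infection. The mature microRNA named by the transgene is shown with its seed, bases 2 to 8, in capitals (RefSeq, GRCm38.p6, chr4:56895272-56895293, minus strand).
mmu-miR-32-5p: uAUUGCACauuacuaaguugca

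The promoters of 27 of the 35 genes were held in the RefSeq table of GRCm38.p6, as windows of 300 bases from 250 before the start. Dhx58, Ido1, Mx1, Mx2, Oas2, Parp9, Parp14 and Usp18 had no entry. The ISRE core was searched as GAAA, then NN, then GAAA again, and the GAS core as TTCNNNGAA, on both strands. An ISRE core was present in 14 of the 27 genes (51.9%), against 3.99% of the 27025 genes in the table and 3.44% of its 32851 windows. A GAS core was present in 9 of 27 (33.3%), against 9.55% of genes and 8.3% of windows. Neighbouring ISRE cores overlapped each other in Bst2, Isg15, Oas1a and Socs1, and a GAS core overlapped an ISRE core in Bst2 and Ifitm3. A match describes letters only and does not show that a factor binds there. The windows below show ISRE cores in capitals. They belong to 2 genes lower by 1.5-fold on each array (Ifitm3 and Ifitm2) and 2 lower by 1.5-fold on array 1 but not on array 2 (Cxcl10 and Bst2). The last, Isg15, had a ratio near 0 in the setting used.
Ifitm3, chr7:141010695-141010994, minus strand: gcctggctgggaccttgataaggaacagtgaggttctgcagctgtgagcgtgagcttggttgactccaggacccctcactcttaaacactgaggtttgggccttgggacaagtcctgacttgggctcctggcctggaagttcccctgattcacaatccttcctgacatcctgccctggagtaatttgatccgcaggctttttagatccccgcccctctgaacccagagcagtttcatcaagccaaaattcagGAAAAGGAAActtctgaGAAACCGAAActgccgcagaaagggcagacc
Ifitm2, chr7:140955912-140956211, minus strand: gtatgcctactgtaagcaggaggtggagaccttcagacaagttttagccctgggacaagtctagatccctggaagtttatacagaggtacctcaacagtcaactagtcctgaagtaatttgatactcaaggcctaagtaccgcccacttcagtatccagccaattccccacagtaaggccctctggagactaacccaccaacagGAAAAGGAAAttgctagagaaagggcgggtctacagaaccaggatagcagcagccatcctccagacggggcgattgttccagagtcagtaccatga
Cxcl10, chr5:92348840-92349139, minus strand: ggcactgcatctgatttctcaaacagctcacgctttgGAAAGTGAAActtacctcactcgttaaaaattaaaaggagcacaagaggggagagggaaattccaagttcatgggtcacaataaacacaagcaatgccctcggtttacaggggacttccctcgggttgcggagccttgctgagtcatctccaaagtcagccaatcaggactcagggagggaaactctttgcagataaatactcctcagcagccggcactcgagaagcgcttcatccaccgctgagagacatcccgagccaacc
Bst2, chr8:71537423-71537722, minus strand: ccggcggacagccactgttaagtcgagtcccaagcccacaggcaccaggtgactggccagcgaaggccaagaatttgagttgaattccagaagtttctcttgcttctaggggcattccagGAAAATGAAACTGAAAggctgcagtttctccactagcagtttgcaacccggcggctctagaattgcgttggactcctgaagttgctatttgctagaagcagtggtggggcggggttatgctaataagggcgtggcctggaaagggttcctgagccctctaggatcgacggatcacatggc
Isg15, chr4:156200769-156201068, minus strand: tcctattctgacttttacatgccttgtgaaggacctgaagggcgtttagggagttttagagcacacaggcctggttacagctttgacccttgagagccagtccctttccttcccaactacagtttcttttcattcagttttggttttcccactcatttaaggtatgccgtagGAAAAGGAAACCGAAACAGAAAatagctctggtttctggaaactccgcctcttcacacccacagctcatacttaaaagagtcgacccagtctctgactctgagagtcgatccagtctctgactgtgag

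Ifitm3 held 2 ISRE cores just after its start, from 2 to 11 and from 19 to 28 bases. Isg15 held 3 that together span −78 to −57, and its mean log2 ratio was −0.03, or −0.97 in the scanner software's own ratios. Among detected genes the median log2 ratio was −0.34 for the 12 with an ISRE core and −0.27 for the 10 without. It was −0.44 for the 8 with a GAS core and −0.27 for the 14 without. No test was made of these differences, and Ddx58 (0.0021) and Isg15 (−0.03) were among the genes with an ISRE core.

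**Figure D1:**
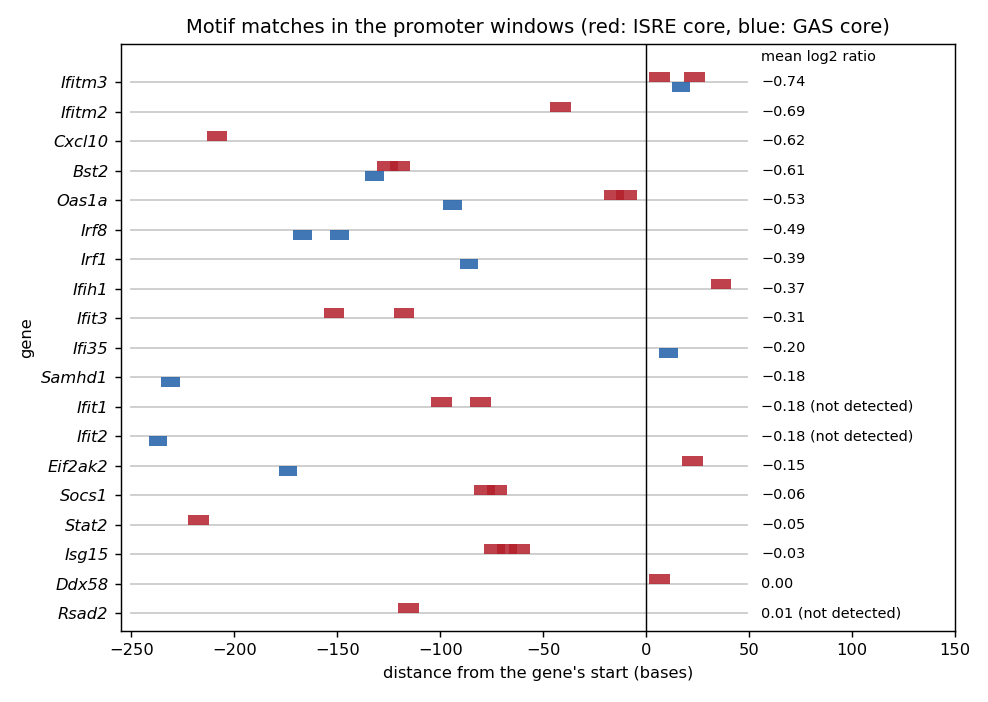
Positions of ISRE cores (red) and GAS cores (blue) in the promoter windows of the 19 genes with at least 1 match, against distance from the gene's start in bases. Each grey line is 1 gene with the matches of all its windows, and the number beside it is the mean log2 ratio of transgenic over wild type. Genes are ordered from the lowest ratio (Ifitm3, −0.74) to the highest (Rsad2, 0.01), and ISRE cores occur along the whole order.

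Expression of the set lay lower in the transgenic pool, by small amounts. A gene counted as detected when both arrays read its probe well above background for the same pool. It counted as lower or higher when each array put the ratio past 1.5-fold on the same side. Of the 33 genes with a probe, 25 were detected, 3 of them were lower (Ido1, Ifitm3 and Ifitm2), 0 were higher and 22 were neither. Among all 10407 detected genes 1.31% were lower and 0.913% higher by this rule, and among all genes with a probe 0.718% and 0.512%. A ratio past 1.5-fold that followed the dye, with opposite directions on the arrays, was seen for 0 members and for 3.06% of detected genes. The RNA came from whole tissue, in which fewer cells of a type and less RNA per cell cannot be told apart. The log2 ratio was below 0 on each array for 18 of the 25, against 27.9% of all detected genes, and above 0 on each array for 0, against 17.5%. The remaining 7 had opposite signs on the arrays. The median log2 ratio of the 25 was −0.27 (−0.38 on array 1 and −0.27 on array 2), beside −0.06 over all detected genes (−0.03 and −0.08).

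Detection leaned on the wild-type pool. Array 2 read the transgenic RNA in Cy5, where 21.1% of spots were well above background, and the wild-type RNA in Cy3, where 57.0% were. Dye and pool coincide on that array. On array 1, with the dyes exchanged, 42.1% of spots were well above background in Cy5 (wild type) and 58.3% in Cy3 (transgenic). Cy5 thus had the smaller share on both arrays, and the cause was not tested. Both arrays detected all 25 genes in wild type, and both detected 11 of them in the transgenic pool. A further 12 were above background in the transgenic pool on 1 array, and Ido1 and Cxcl10 on neither. Counts over the 25 therefore contain genes that passed only because they were measurable in wild type. Among the 11 detected in both pools, 7 had ratios below 0 on each array, against 22% of the 6052 genes detected in both pools, and 2 were lower, against 1.26%. The other 4 of the 11 (Stat2, Ifitm1, Parp9 and Ifi35) had opposite signs on the arrays. Over all 33 genes with no filter, 21 were below 0 on each array, against 23.9% of all 18952 genes, and 1 (Oas2) was above 0 on each. The median of the 33 was −0.18, beside −0.01 over all genes.

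Signals were also compared as levels, on the normalized log2 scale that holds an added offset of 50 intensity units and so understates the change of dim genes. Both transgenic levels lay below both wild-type levels for 16 of the 25 detected genes, against 20% of all detected genes, and for 7 of the 11 detected in both pools, against 15%. Across the 25 genes the ratios of the 2 arrays had a Pearson's r of 0.46 and a Spearman's rho of 0.39, whereas over all 10407 detected genes these were −0.03 and −0.12. These are descriptions across genes that share the same arrays and pools. The median SD between arrays was 0.15 for the 25 genes and 0.28 for all detected genes. On array 1 alone 8 of the 25 were at least 1.5-fold lower, against 5.36% of all detected genes. On array 2 alone only 3 were, a share of 12% that is not above the 15% of all detected genes.

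**Figure D2:**
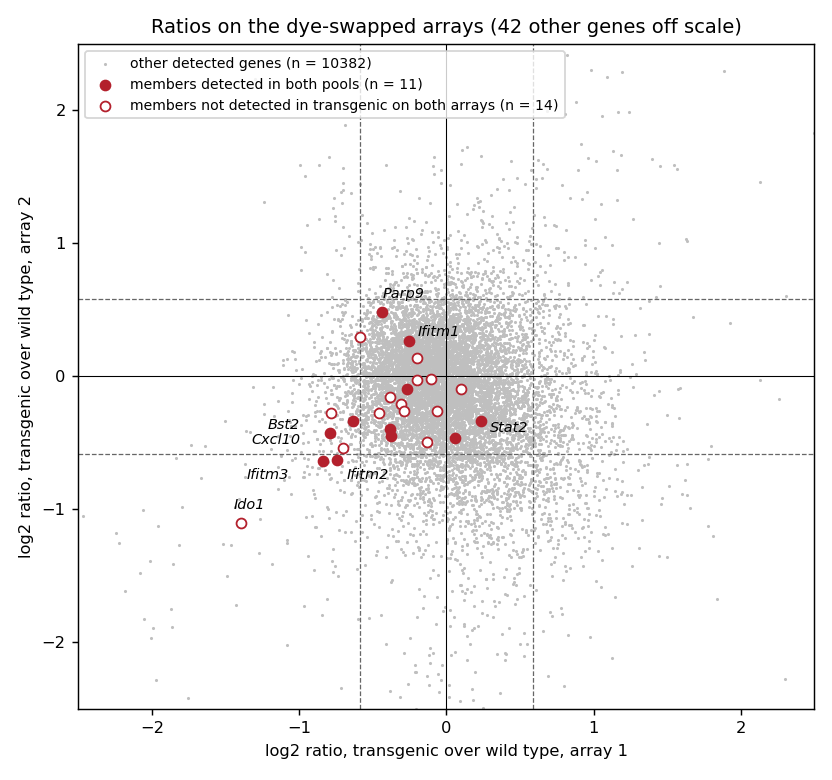
Log2 ratio of transgenic over wild type on array 1 (x axis) and array 2 (y axis) for 10382 other detected genes (grey, 42 of them off scale) and the 25 detected interferon-stimulated genes (red; filled where detected in both pools). Dashed lines mark 1.5-fold, and 18 of the 25 genes lie below 0 on both axes, with Ido1, Ifitm3 and Ifitm2 past both lines.

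**Figure D3:**
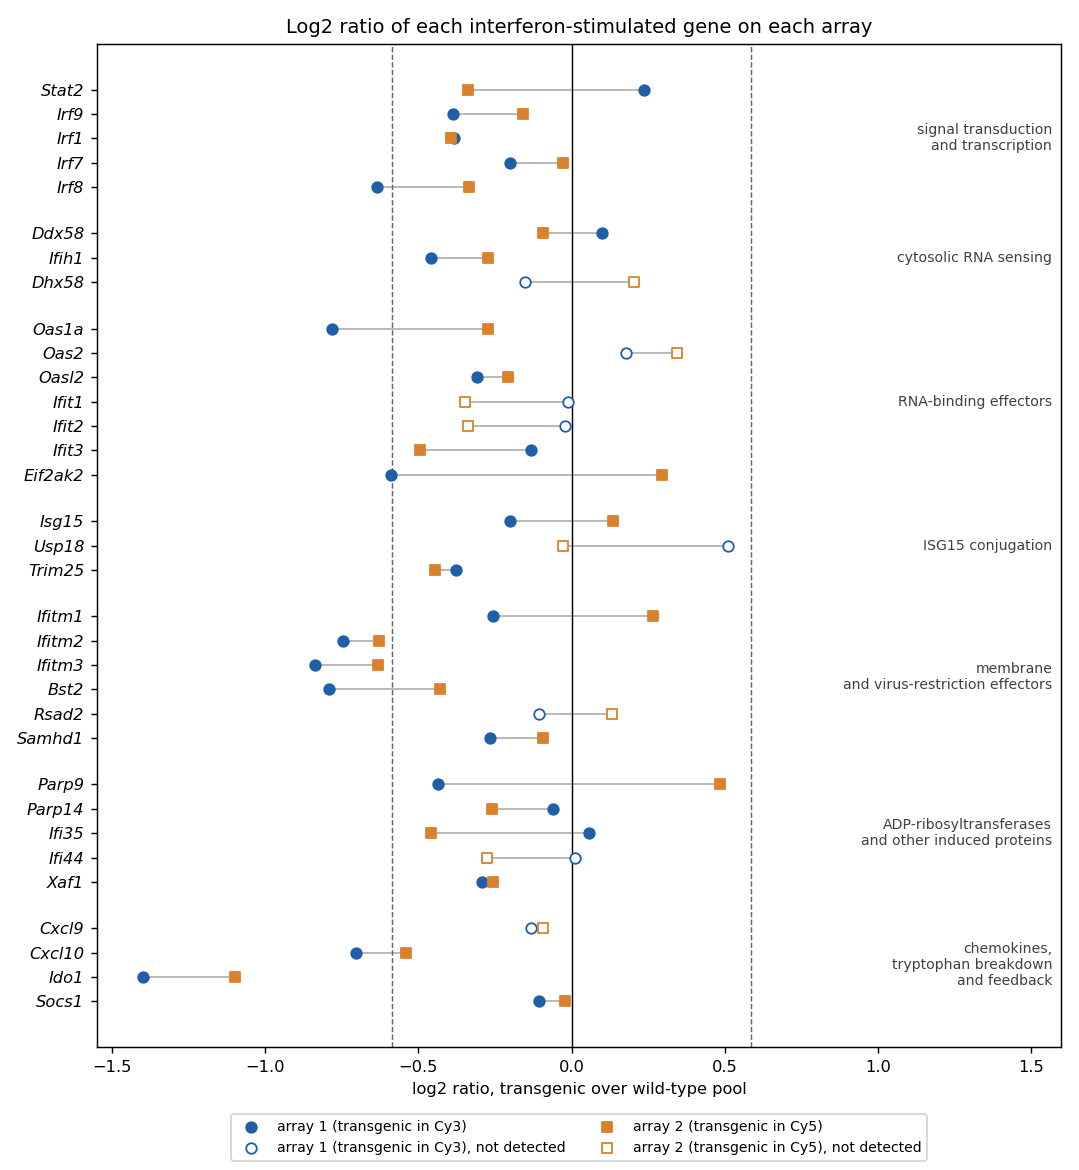
Log2 ratio of transgenic over wild type for each of the 33 genes with a probe, on array 1 (circles) and array 2 (squares), grouped by role; open symbols are genes that were not detected and dashed lines mark 1.5-fold. Ido1 is the lowest at −1.40 and −1.10, and no gene is past the upper line on either array.

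Among the transcription factors of the pathway, Irf1 had the closest agreement between arrays. IRF1 is induced mainly by interferon gamma and activates antigen presentation genes. Its log2 signal was 9.25 and 9.26 in the wild-type pool on arrays 1 and 2, and 8.87 and 8.87 in the transgenic pool. The pools did not overlap, and the ratio of −0.39 ± 0.0070 (1.31-fold lower) was below the 1.5-fold rule. A second, dimmer probe of Irf1 had a mean ratio of −0.16 ± 0.09. Irf8, a factor of macrophages and dendritic cells as well as of the interferon response, had signals of 8.55 and 8.36 in wild type and 7.91 and 8.03 in the transgenic pool. Its ratio was −0.49 ± 0.21, past 1.5-fold on array 1 (−0.64) and short of it on array 2 (−0.34). The arrays had opposite signs in the scanner software's own ratios (−0.43 and 0.05) and in the authors' deposited table (−0.44 and 0.03). With median centring Irf8 passed the rule (−0.66 and −1.58).

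The DNA-binding subunit of the ISRE-binding complex, Irf9, was at −0.27 ± 0.16, with both transgenic signals (7.01 and 7.36) under both wild-type signals (7.39 and 7.52). Its partner Stat2 was at −0.05 ± 0.41, with opposite signs on the arrays (0.24 and −0.34). It was above 0 on each array in the scanner software's own ratios (0.42 and 0.29) and in the authors' deposited table (0.42 and 0.27). With median centring its signs were opposite (0.21 and −1.48). Irf7, which amplifies type I interferon production, was at −0.11 ± 0.12. None of these 5 regulators passed the rule in the setting used.

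Of 3 cytosolic RNA sensors, 2 were detected and 0 passed the rule. Ifih1, which encodes the long double-stranded RNA sensor MDA5, had signals of 7.65 and 7.48 in wild type and 7.19 and 7.21 in the transgenic pool, which did not overlap, with a ratio of −0.37 ± 0.13. Ddx58, the gene of RIG-I, was at 0.0021 ± 0.14, and its pools overlapped. Dhx58, the gene of the related helicase LGP2, was not detected.

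Of 7 genes whose proteins bind or degrade RNA, 4 were detected and 0 passed the rule. Oas1a, a 2'-5'-oligoadenylate synthetase that activates RNase L, had signals of 7.50 and 7.40 in wild type and 6.71 and 7.13 in the transgenic pool. The pools did not overlap, and the ratio was −0.78 on array 1 and −0.27 on array 2 (mean −0.53 ± 0.36). Oasl2, a relative of the same family, was at −0.26 ± 0.07, and Ifit3, of the family that binds viral RNA ends, at −0.31 ± 0.26. Eif2ak2, the gene of the kinase PKR that halts translation, had opposite signs (−0.59 and 0.30, mean −0.15 ± 0.63). Oas2, Ifit1 and Ifit2 were not detected.

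The ISG15 system attaches a ubiquitin-like protein to other proteins. Isg15 itself was at −0.03 ± 0.24 with overlapping pools, but at −0.943 and −0.998 on the arrays, and so past the rule, in the scanner software's own ratios. Usp18, the protease that removes ISG15 and dampens the receptor, was not detected. Trim25, a ubiquitin ligase that activates RIG-I, had signals of 8.58 and 8.53 in wild type and 8.20 and 8.09 in the transgenic pool. These did not overlap, and the ratio was −0.41 ± 0.05. A dimmer second probe of Trim25 was at 0.05 ± 0.16, so the probes of this gene differed in sign.

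The clearest differences measured in both pools were in the IFITM proteins, small membrane proteins that block fusion of viruses in endosomes. Ifitm3 had signals of 10.62 and 11.22 in wild type and 9.78 and 10.59 in the transgenic pool. Both transgenic values were under both wild-type values, and the ratio was −0.84 on array 1 and −0.63 on array 2, a mean of −0.74 ± 0.15 or 1.67-fold lower. Ifitm2, of the same cluster on chromosome 7, had signals of 9.74 and 10.22 in wild type and 8.996 and 9.59 in the transgenic pool. Its ratio was −0.75 and −0.63, a mean of −0.69 ± 0.08 or 1.61-fold lower. A second probe of Ifitm2 was at −0.96 and −0.37. Ifitm1, whose promoter window lies between those of Ifitm2 and Ifitm3, was not lower. Its ratio was −0.26 and 0.26 (mean 0.0040 ± 0.37), and its pools overlapped, although with median centring its mean was −0.53 (all detected genes −0.57). The genes are close paralogs, and whether each probe reads a single gene was not tested.

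The 2 calls were close to the threshold of 0.58 in log2. On array 2 the intensities above local background were 3894 in wild type and 473.5 in the transgenic pool for Ifitm3. For Ifitm2 they were 1803 and 212. The ratios of both genes on array 2 thus depend on the loess correction, and with median centring they were −2.45 (Ifitm3) and −2.32 (Ifitm2). The scanner software's own log ratios left Ifitm3 at −0.54 and Ifitm2 at −0.22 on array 2, which ended both calls, as did the authors' deposited value table (−0.57 and −0.25 on array 2). Without background subtraction the call of Ifitm3 also ended (−0.55 on array 2), and with the mean over its probes that of Ifitm2 (−0.50). The sign stayed below 0 on each array for both genes in all of these settings.

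Among the other restriction factors, Bst2, the gene of tetherin, which holds budding virions at the cell surface, had signals of 8.22 and 8.32 in wild type and 7.43 and 7.90 in the transgenic pool. The pools did not overlap, and the ratio of −0.79 and −0.43 (mean −0.61 ± 0.26) missed the rule on array 2. It passed the rule in the scanner software's own ratios (−0.85 and −1.06) and in the authors' deposited table (−0.85 and −1.09). Samhd1, which depletes nucleotides needed by retroviruses, was at −0.18 ± 0.12. Rsad2, the gene of viperin, was not detected.

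**Figure D4:**
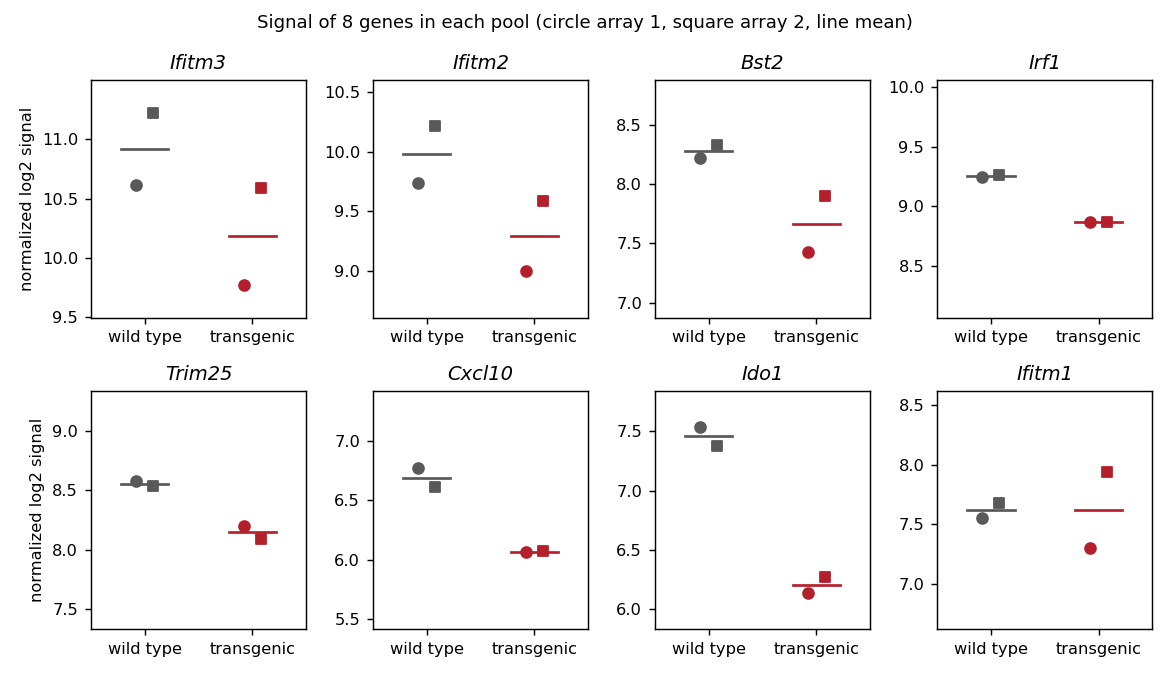
Normalized log2 signal of 8 genes in the wild-type pool (grey) and the transgenic pool (red), with circles for array 1, squares for array 2 and a line at their mean; each panel spans 2 log2 units. The pools do not overlap for 7 of the genes, from Ido1 with a mean difference of −1.25 to Irf1 with −0.39, and overlap for Ifitm1.

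Of 5 ADP-ribosyltransferases and other induced genes, 4 were detected and 0 passed the rule. Parp9 had opposite signs on the arrays (−0.44 and 0.49), and its partner Parp14 was at −0.16 ± 0.14, with a second probe at 0.17 ± 0.08. Ifi35 was at −0.20 ± 0.37 with opposite signs. Xaf1, a pro-apoptotic gene induced by interferon, had signals of 6.996 and 6.99 in wild type and 6.70 and 6.73 in the transgenic pool, a ratio of −0.27 ± 0.02. Ifi44 was not detected.

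The group of chemokines, Ido1 and Socs1 held the lowest value of the set. Ido1, an interferon gamma target that degrades tryptophan, had log2 signals of 7.54 and 7.37 in wild type and 6.14 and 6.28 in the transgenic pool. As intensities above local background, the wild-type pool gave 152 and 132.5 units, and the transgenic pool gave 15 and −14. The transgenic pool was thus not well above background on either array. The measured ratio was −1.40 on array 1 and −1.10 on array 2. Since the transgenic level has only an upper bound, Ido1 was at least 2.38-fold lower in the setting used. This bound holds for that setting alone. The mean log2 ratio was −1.25 with the offset of 50, −2.05 with an offset of 16 and −3.33 in the scanner software's own ratios. Without background subtraction it was smaller, at −1.03 (−1.45 on array 1 and −0.61 on array 2). Its size thus differed with the treatment of background, and the call held in each setting that measured it.

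Cxcl10, a chemokine that draws activated T cells through CXCR3, had signals of 6.77 and 6.61 in wild type and 6.07 and 6.07 in the transgenic pool, where it was not well above background. Both arrays agreed in direction (−0.70 and −0.54, mean −0.62), and array 2 fell short of the rule. The bound on the change was at least 1.45-fold lower, from the lowest signal called present on array 2 and the gene's own on array 1. With an offset of 16 it passed the rule (−1.12). Without background subtraction its ratio on array 2 was 0.04. Cxcl9, a related chemokine of the same receptor, was not detected, and Socs1, a feedback inhibitor of JAK kinases, was at −0.06 ± 0.06.

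The genes that passed the rule differed between processing settings. The number lower was 3 in the setting used, 7 of 25 in the scanner software's own ratios (Irf7, Irf9, Oasl2, Isg15, Bst2, Cxcl10 and Ido1), and 1 of 11 (Bst2) in the authors' deposited table. In these settings 5.97% and 1.94% of all genes were lower, and 2.36% and 2.86% higher. With median centring 6 members were lower, in a setting where 5.32% of all genes were lower and 0.0192% higher and the median of all genes moved to −0.57. The number higher was 0 in every setting. The median of the set was below the median of all genes in all 13 settings, counting the one used.

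**Figure D5:**
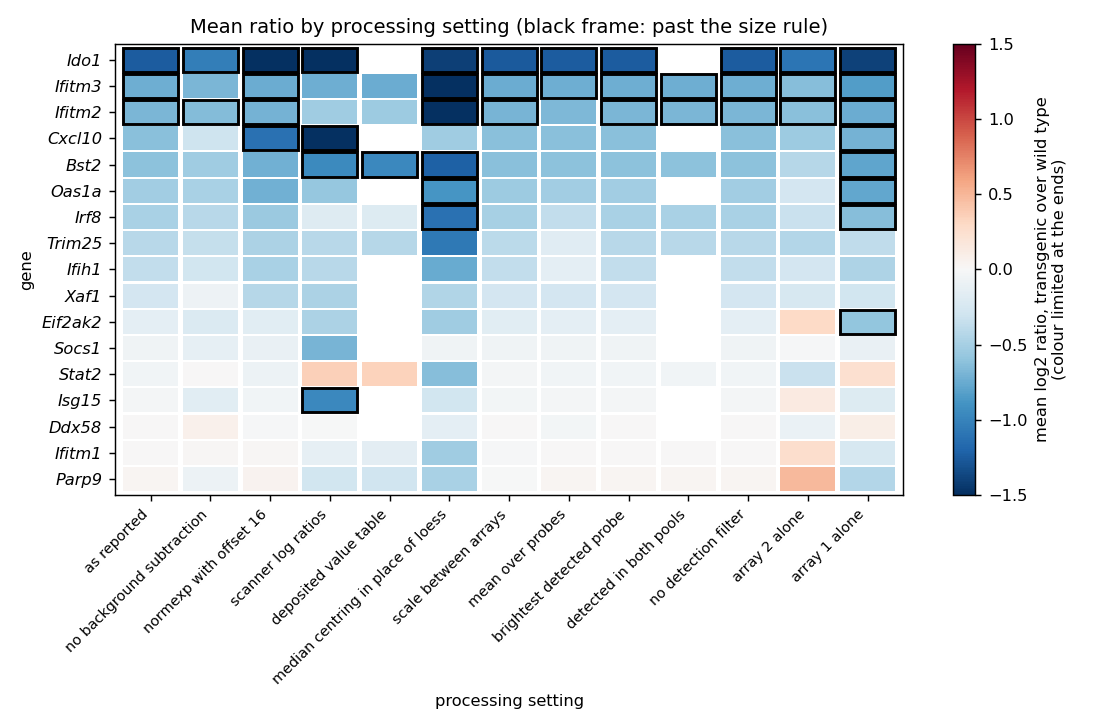
Mean log2 ratio of transgenic over wild type (colour) for 17 genes under 13 processing settings, with a black frame where the gene was past the 1.5-fold rule and an empty cell where it was not measured. Ido1 is framed in every setting that measured it, Ifitm3 and Ifitm2 lose the frame with the scanner log ratios and the deposited table, and every framed cell is below 0.

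Upstream of these genes, the interferons themselves were below detection: 8 of the listed interferon genes had a probe and 0 were detected. All 11 genes listed for interferon receptors and the kinases and STATs they use were detected and 0 passed the rule, with a median of −0.11. Ifngr2, a chain of the interferon gamma receptor, was the lowest (−0.55 ± 0.17) and Ifngr1, the other chain, the highest (0.23 ± 0.52). Of 15 sensors and adaptors, 11 were detected and 0 passed, from Sting1, listed as Tmem173 (−0.51 ± 1.00), to the kinase Tbk1 (0.45 ± 0.37). Of 10 negative regulators, 9 were detected and 0 passed, from Pias4 (−0.39 ± 0.06) to Irf2 (0.27 ± 0.01).

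Of 36 other interferon-induced genes that were detected, 3 were lower, 1 was higher and 32 were neither, with a median of −0.24. Ifi27l2a, a small mitochondrial interferon-induced gene, was at −1.49 and −1.50 on the arrays (mean −1.50 ± 0.01), with a second probe at −1.52 and −1.67, and it passed the rule in every setting run for it. Lgals3bp, a secreted galectin-binding glycoprotein, was at −0.79 ± 0.25, a call that ended with scaling between arrays (−0.58 on array 2). Ccl5, a chemokine of T cells, was at −0.74 ± 0.06, which fell short of the rule (−0.57 on array 2) when no background was subtracted. Mov10, an RNA helicase, was higher at 1.47 ± 0.83, a call that ended with median centring (0.22 on array 2). Together with the upstream lists, 67 genes that are not members were detected, of which 3 were lower and 1 higher, shares to be read against 1.31% and 0.913% of all detected genes.

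Markers of other cells in the gland were read beside these values. Of 13 detected macrophage and monocyte markers, 4 were lower (Lyz1 −1.57 ± 0.21, Ly6c2 −0.87 ± 0.16, C1qc −0.75 ± 0.23 and Mrc1 −0.67 ± 0.10) and 12 were below 0 on each array. The other lysozyme gene of the list, Lyz2, did not pass the rule (−0.52 ± 0.06), and Fcgr1 had opposite signs (−0.11 and 0.12). The summed signal of the 13 was 6538 and 6604 in wild type and 3525 and 3935 in the transgenic pool. This sum mostly reads Ly6c2, whose log2 signal was 11.92 and 11.87 in wild type and 10.94 and 11.12 in the transgenic pool. Lyz1, the next brightest in wild type, was at 9.47 and 9.36 there. Itgam was well above background on only 1 array in each pool and so was not detected. Adipocyte markers were lower in 5 of 7 detected (summed signal 6989 and 7738 against 1941 and 1883). Among B and plasma cell genes Jchain was lower, 1 of 3 detected, and Cd79a, Ms4a1 and Mzb1 were not detected. T and NK cell markers were mostly not detected (3 of 13 were, with 0 lower), as were dendritic cell markers (2 of 10, 0 lower) and neutrophil markers (1 of 6, 0 lower). Of 5 detected pan-leukocyte genes 0 were lower and 4 were below 0 on each array, with a median of −0.27 (Ptprc −0.45 ± 0.15). Cd52 was above 0 on each array (0.18 and 0.29). The summed signal of the list was 8780 and 8273 in wild type and 9703 and 9882 in the transgenic pool. This sum mostly reads Cd52, whose log2 signal was 13.00 and 12.90 in wild type. Arhgdib, the next brightest on array 1, was at 7.92 and 7.73 in wild type and 7.15 and 7.66 in the transgenic pool. Of the prostate epithelial markers 4 of 12 were lower (Spink1 −6.29 ± 0.23, Sbp −3.18 ± 0.42, Msmb −0.86 ± 0.37 and Hoxb13 −0.69 ± 0.03). Tgm4 was above 0 on each array (0.25 and 1.16), and the others had opposite signs on the arrays. Of the 4 basal, 5 endothelial, 6 fibroblast and 5 smooth muscle genes detected, 0 passed the rule. The part that macrophage and monocyte RNA has in the lower interferon-stimulated genes was not tested.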

How the data were processed

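The members and gene lists were chosen with earlier results of these data known. Dorsolateral prostate RNA (100 ng) of both pools was labelled and hybridised on 2-colour Agilent arrays, per the labels' protocols, and the file headers name Feature Extraction 11.0.1.1. The deposited median spot and background signals are intensities with no subtraction. The scanner's deposited ratio column is a log10 value, Cy5 against Cy3. The authors' deposited value table (8533 rows) follows that ratio turned to transgenic over wild type in log2 (r = 1). Its median is 0 on each array, and its values are slightly shifted, as for Ifitm2 on array 2 (−0.245 against −0.220). The labels do not state its filter.

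Signals were corrected by normexp (offset 50) and loess in limma 3.58.1 (R 4.3.3), with control and outlier spots at weight 0 and outlier spots, 157 and 177, left out. Levels were scaled between arrays by Aquantile. No spot was saturated (0). Cy5 was well above background at 42.1% and 21.1% of spots and Cy3 at 58.3% and 57.0%, and the number of arrays limits the precision. Probes were named through a RefSeq table of GRCm38.p6, which matched 27816 probes; 13358 had no match. The array's own build differs, so no probe coordinates are given. The ratio rule was tested on simulated data for bright probes only. Genes named were every member past the rule or past 1.5-fold on 1 array, the extremes of each role, undetected members, and called or extreme genes of each list; other members are described too, and not every listed gene is printed. Alternatives covered background, normalization, probe choice, detection and single arrays. Tables and plots used pandas 2.3.3, numpy 2.4.6 and matplotlib 3.10.9 in Python 3.11.15.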

Additional observations from a re-analysis of the deposited data

How the results depend on the processing

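The number higher was 0 in the settings run, and the median log2 ratio of the set was below 0 in the 13 settings for which a median was computed. With the number lower at 3 and the median at −0.27 in the setting used, the number lower was 7 in the scanner software's own ratios, 1 in the authors' deposited table, 6 with median centring, 1 with a 2-fold rule and 0 with array 2 left unturned. The median was −0.38 with an offset of 16, −0.54 in the scanner software's own ratios, −0.69 with median centring (all detected genes −0.57), −0.18 with the mean over probes, −0.39 with detection in both pools and −0.18 with no detection filter. Leaving out 1 array at a time, the number lower ranged from 3 to 8 and the median from −0.38 to −0.27, with 8 lower on array 1 alone (without array 2). The cause of these shifts was not tested. The number of members measured also differed, being smaller in the table and with detection in both pools (11) and larger with no filter (33). No paired analysis was possible because both arrays hold the same pair of pools and form a single group. Weak Cy5 signal on array 2 limits what can be said of dim members, and the ratios of bright members on that array depend on the normalization.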
